A study of Mus musculus with 2 samples.

Results

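The genes described here are 4 glycogen targeting subunits of protein phosphatase 1 (Ppp1r3b, Ppp1r3c, Ppp1r3d and Ppp1r3g) and 5 enzymes of glycogen metabolism (Gys2, Pygl, Gbe1, Ugp2 and Phka2) in the livers of male mice. They were chosen by name, as glycogen genes of the liver, and not by any threshold on the measurements. Earlier results of these data were known when they were chosen, so counts and contrasts over them are descriptions only. On the array, 12 probes carried a RefSeq transcript of one of these 9 genes, of 20652 gene names in all. All 9 genes were measured, that is, well above the local background on at least 1 array, as were 16346 of all genes. Ppp1r3g was set against the other targeting subunits.

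Liver RNA of mice after an overnight fast (fasting) was compared with liver RNA of fed mice (feeding), to ask which hepatic genes respond to food intake. Each group was 1 pool of RNA from 3 mice, and each pool was hybridised to 1 one-colour oligonucleotide array. The fast lasted 16 h by the description of the fasting sample and 14 to 16 h by the treatment protocol. The fed mice are described in one place as eating ad libitum and in another as given food after a fast, so the time since their last meal is not settled. The labels name no genetic change and no drug in either group, and give no age or strain, while the study's methods name C57BL/6 J mice and an age range for the study as a whole, tied to no sample here. The mice within a pool cannot be told apart and the groups have 1 array each, so no difference below has a replicate check, and none is given a p-value. The errors printed beside signals are the estimates that the feature extraction software made for each spot.

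Glycogen is the branched store of glucose that the liver fills after meals and empties between them. Glycogen synthase lengthens its chains and is active when dephosphorylated, whereas glycogen phosphorylase shortens them and is active when phosphorylated. Protein phosphatase 1 (PP1) acts on both enzymes and is held on the glycogen particle by targeting subunits of the PPP1R3 family, each of which binds the phosphatase catalytic subunit and glycogen. Protein kinase A, which acts downstream of glucagon, works in the opposite direction through phosphorylase kinase.

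The livers differed most, among these genes, in the mRNA of Ppp1r3g, which was 32.3-fold lower upon feeding, while Ppp1r3c was 2.98-fold higher. By the brightest probe of each gene and quantile normalization, the mRNAs of Ppp1r3b and Ppp1r3d and of all 5 enzymes changed by less than 1.5-fold. The other Gys2 probe fell by 1.52-fold, and Pygl rose past 1.5-fold with scaling to the median (0.74 on the log2 scale). Of the 9 genes, 2 (22.2%) passed a 2-fold change, 1 in each direction, beside 7.91% of all 16346 genes measured (1293 genes). Of all genes, 3.29% were past 2-fold higher upon feeding (537 genes) and 4.62% past 2-fold lower (756 genes). With the arrays scaled to the same median instead of the same distribution, that split was 717 higher and 649 lower, and it was 876 and 760 when dim genes were given their measured ratio in place of a lower bound. In whole liver, fewer cells that express a gene and less of its RNA per cell cannot be told apart.

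**Figure D1:**
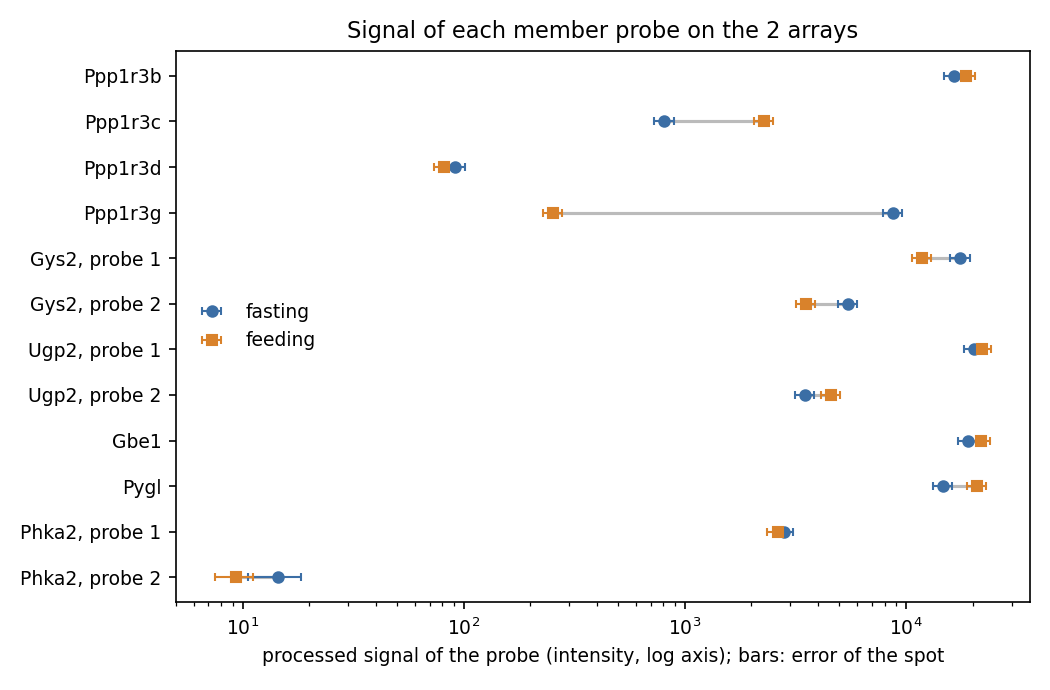
Processed signal (intensity units, log axis) of each of the 12 probes of the 9 glycogen genes on the fasting array (circles) and the feeding array (squares), before scaling between arrays; bars are the error the feature extraction software gave the spot, and probes of a gene are numbered by brightness. Ppp1r3g moved from 8762 to 252.5, Ppp1r3c from 808 to 2275, and the other pairs lie close together. Levels of different probes cannot be compared with each other.

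To show the sequence next to the genes that are contrasted, the 250 bases before the annotated start are given for the 3 targeting subunits with a RefSeq promoter entry (assembly GRCm38.p6), written 5′ to 3′ on the gene's strand, with any letters that matched a searched motif in capitals. The Ppp1r3g window is chr13:35967656-35967905 on the plus strand, the Ppp1r3c window chr19:36736605-36736854 on the minus strand, and the Ppp1r3d window chr2:178414464-178414713 on the minus strand.
Ppp1r3g: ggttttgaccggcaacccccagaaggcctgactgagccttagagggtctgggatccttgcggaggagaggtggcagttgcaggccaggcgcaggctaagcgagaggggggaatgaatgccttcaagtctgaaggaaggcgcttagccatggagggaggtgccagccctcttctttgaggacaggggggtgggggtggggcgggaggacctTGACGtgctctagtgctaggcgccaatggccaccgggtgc
Ppp1r3c: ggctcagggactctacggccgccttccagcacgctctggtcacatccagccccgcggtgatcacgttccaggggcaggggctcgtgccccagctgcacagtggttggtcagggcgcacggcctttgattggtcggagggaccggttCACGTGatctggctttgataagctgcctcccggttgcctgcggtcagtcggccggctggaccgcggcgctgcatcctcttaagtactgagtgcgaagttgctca
Ppp1r3d: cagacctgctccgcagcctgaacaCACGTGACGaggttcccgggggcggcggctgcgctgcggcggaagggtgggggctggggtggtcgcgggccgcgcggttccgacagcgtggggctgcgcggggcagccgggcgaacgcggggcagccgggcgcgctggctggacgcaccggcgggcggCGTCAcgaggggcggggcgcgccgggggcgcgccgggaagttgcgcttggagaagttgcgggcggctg

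The 5 motifs, searched on both strands, were TGACG, the core of the cAMP response element, the whole element TGACGTCA, which contains TGACG, the forkhead motif GTAAACA, the E-box CACGTG and the nuclear receptor site AGGTCA. The Ppp1r3g window held 1 match, TGACG with its first base at position -40 from the start. The Ppp1r3c window held no TGACG and 1 E-box, CACGTG at -104. The Ppp1r3d window held 3 matches, an E-box at -226 that overlaps a TGACG at -222, and a TGACG on the opposite strand at -68. These letters are common, with TGACG in 17.8% and CACGTG in 6.02% of 32851 promoter windows of this length. TGACGTCA (1.55% of windows), GTAAACA (3.17%) and AGGTCA (14.0%) were in none of these 3 windows. The guanine and cytosine content was 63.2% for Ppp1r3g, 64.4% for Ppp1r3c and 79.2% for Ppp1r3d. Of the enzymes, the Pygl window held a TGACG on the opposite strand at -44 and an AGGTCA on the opposite strand at -128, and the windows of Gbe1, Ugp2 and Phka2 held no match. A match is a description of the letters and does not show that a factor binds there.

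Ppp1r3g encodes a targeting subunit that carries PP1 to glycogen. Its probe (transcript NM_029628) read 8762 ± 876 intensity units on the fasting array and 252.5 ± 25.3 on the feeding array, and was well above background on both. In the raw pixels, before any subtraction, the spot read 8418 upon fasting over a local background of 23.5, and 282.5 upon feeding over 22. After quantile normalization, which gives both arrays the same distribution of signals, the values were 8672 and 268, and the level fell by 5.02 on the log2 scale. Probes printed at 10 places of each array gave an SD between places, which adds the spread among places on both arrays. For a log2 difference between the arrays it was 0.0952 in the bright class of signals and 0.136 in the middle class, when genes were split by signal into 3 classes of equal size. This SD holds no variation between pools, labelling or arrays. The Ppp1r3g probe falls in the bright class by its mean over both arrays. Its signal upon feeding alone was dimmer than that mean, and the software's own error for the Ppp1r3g difference was 0.204. Bright spots within 15 rows and columns of the Ppp1r3g spot had a median log2 change of -0.01 (435 spots), so the change was not shared by that area of the slide. It was the 5th largest decrease of the 16346 genes, and 0.0245% of genes fell further. Genes seen on 1 array count here at a lower bound, so more of them may have fallen further.

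Ppp1r3c encodes the targeting subunit known as protein targeting to glycogen, which also binds glycogen synthase and phosphorylase. Its probe (NM_016854) read 808 ± 80.9 upon fasting and 2275 ± 228 upon feeding. The feeding array was the higher by 1.58 on the log2 scale, a 2.98-fold increase. Ppp1r3c ranked 159th among increases, with 0.967% of genes higher, where genes seen on 1 array again count at a lower bound. Its spot stood among bright spots with a median change of 0.02.

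Ppp1r3b encodes the liver glycogen targeting subunit, the classical partner of PP1 on the hepatic glycogen particle. Its probe (NM_177741) read 16451 ± 1645 upon fasting and 18655 ± 1866 upon feeding, a log2 change of 0.21 that lies close to the software's error of 0.204. A change at least this large, in either direction, was seen for 57.6% of all genes. Ppp1r3d encodes a targeting subunit found in many tissues. Its probe (NM_001085501) was dim, at 91.5 ± 9.81 upon fasting and 81.4 ± 8.28 upon feeding, and its log2 change of 0.06 after quantile normalization, or -0.06 after scaling to the 75th percentile, was within the SD of 0.242 between places for dim probes. Neither gene came near 2-fold.

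The contrast within the family was set between Ppp1r3g and each other subunit, and it does not move with a factor common to a whole array. The log2 change of Ppp1r3g minus that of Ppp1r3b was -5.22, a ratio of 37.3-fold, where the difference of probes of the bright class has an SD of 0.135 between places on the array. Against Ppp1r3c the difference was -6.59, a ratio of 96.4-fold with the same SD. Against Ppp1r3d it was -5.08, a ratio of 33.7-fold with an SD of 0.26. Among the other 3 subunits the gaps were smaller. Ppp1r3c minus Ppp1r3d was 1.52 and Ppp1r3b minus Ppp1r3c was -1.37, while Ppp1r3b and Ppp1r3d differed by 0.15, within the SD of 0.26. In order of change, upon feeding, Ppp1r3c came first, Ppp1r3b and Ppp1r3d followed, and Ppp1r3g came last. Under quantile normalization Ppp1r3b and Ppp1r3d had no gap beyond the spread of the array. With scaling to the 75th percentile they changed by 0.29 and -0.06, and with scaling to the median by 0.42 and 0.07. Both of those gaps are wider than the SD of 0.26.

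**Figure D2:**
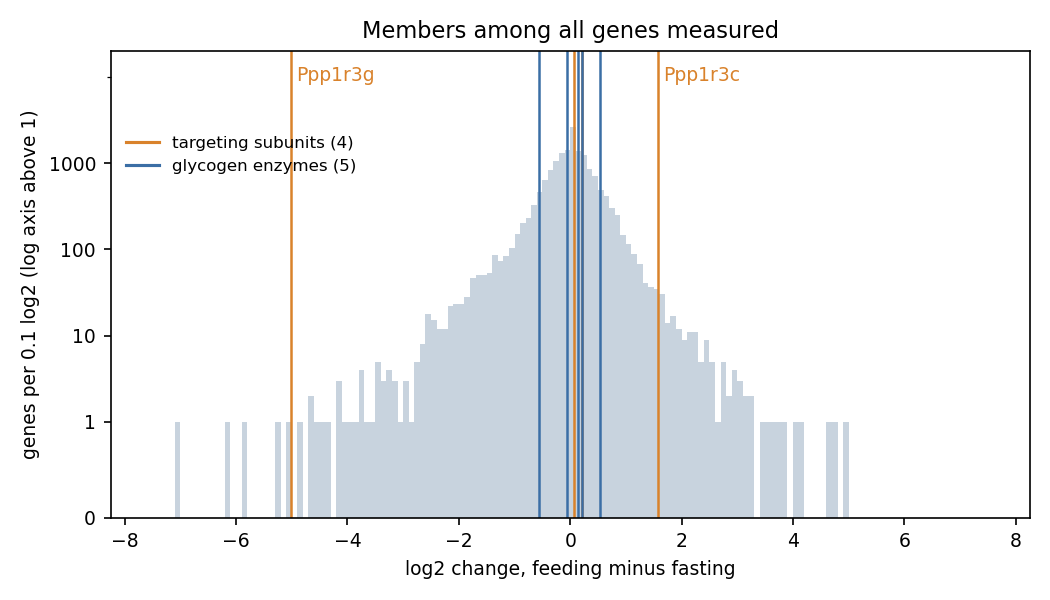
Number of genes per 0.1 of log2 change, feeding minus fasting (vertical axis logarithmic above 1), for the 16346 genes measured, with a vertical line at each of the 9 glycogen genes. Ppp1r3g at -5.02 lies in the far left tail and Ppp1r3c at 1.58 in the right flank, and the other 7 lie in the body of the distribution, within which the middle 90% of genes run from -0.96 to 0.84.

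The other 3 members of the family added little signal. For Ppp1r3a, the subunit of striated muscle, neither array gave a signal well above background. Ppp1r3e read 17.8 upon fasting and 26.6 upon feeding, close to the floor of both arrays, with a log2 change of 0.75. Ppp1r3f was well above background upon feeding alone, and was at least 1.53-fold higher there, by the higher of its own fasting signal and the dimmest signal that counted as above background. The median of this pair of dim probes, 0.69 on the log2 scale, was 0.14 with another background correction (normexp). The 3 catalytic subunits of PP1, Ppp1ca, Ppp1cb and Ppp1cc, changed by 0.10 to 0.15, and none passed 2-fold.

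The enzymes moved within a narrow range. Gys2 is the liver glycogen synthase, the enzyme that the PP1 complex activates. Its brighter probe (NM_145572) read 17606 ± 1761 upon fasting and 11778 ± 1178 upon feeding, a log2 change of -0.57, and its other probe read 5455 and 3519, a change of -0.61, so that the probes agree within the error of 0.204. Of all genes, 11.1% had a lower value. Pygl is the liver glycogen phosphorylase, which releases glucose 1-phosphate from glycogen. Its probe (NM_133198) read 14722 ± 1472 upon fasting and 20889 ± 2089 upon feeding, a log2 change of 0.53, with 12.1% of genes higher. Neither passed 2-fold alone. They had the lowest and the highest change of the 5 enzymes, so the gap between them is the widest in this group. Gys2 minus Pygl was -1.10, a ratio of 2.14-fold with an SD of 0.135 between places. This is a difference between the changes of the genes, not between their levels.

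Ugp2 makes UDP-glucose, the glucose donor of glycogen synthase, and Gbe1 is the branching enzyme. The brighter Ugp2 probe (NM_139297) read 20386 ± 2039 upon fasting and 22011 ± 2201 upon feeding, a log2 change of 0.14. The other Ugp2 probe read 3490 and 4565, a change of 0.42. The gap between the probes of this gene is wider than the SD of 0.135 for a pair of bright probes. By the software's error, however, their ranges of log2 change, -0.06 to 0.34 and 0.22 to 0.63, overlap. Gbe1 (NM_028803) read 18998 ± 1900 upon fasting and 21769 ± 2177 upon feeding, a log2 change of 0.22. Phka2 is the regulatory alpha subunit of phosphorylase kinase in liver. Its bright probe (NM_172783) read 2815 ± 282 upon fasting and 2625 ± 263 upon feeding, a log2 change of -0.06 that turned to 0.01 and 0.13 when the arrays were scaled to their 75th percentile or median. Its second probe read 14.5 and 9.34, was not well above background on the fasting array, and adds no information on the level.

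**Figure D3:**
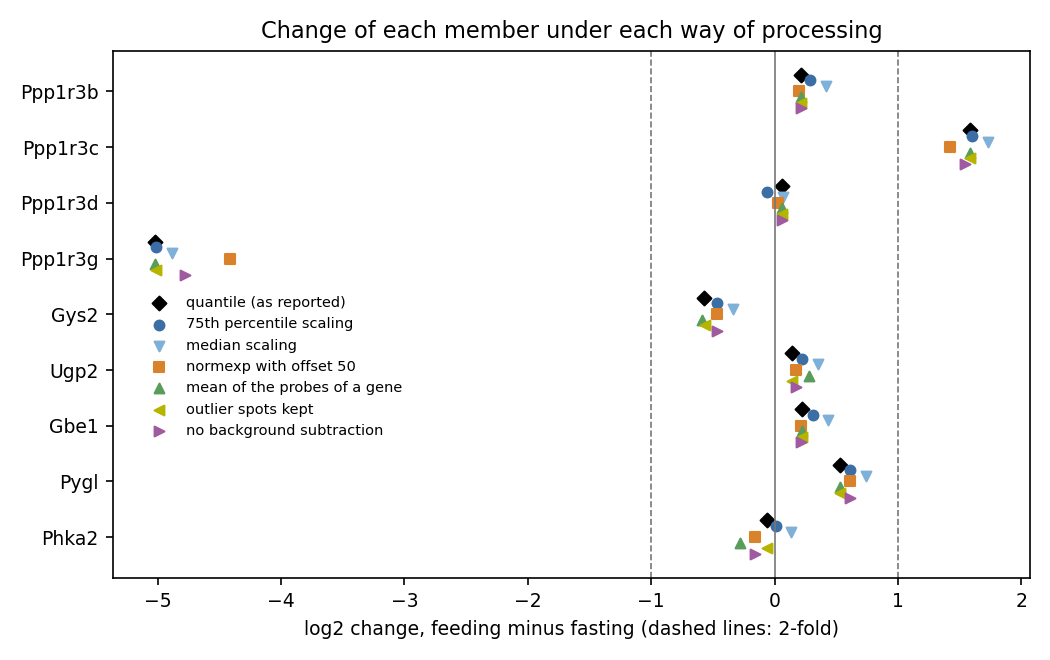
Log2 change, feeding minus fasting, of the 9 glycogen genes under quantile normalization (diamonds) and 6 other ways of processing the same arrays, with dashed lines at 2-fold. Ppp1r3g stays between -5.02 and -4.41 and Ppp1r3c between 1.42 and 1.73, and the other 7 stay inside the lines, with Ppp1r3d and Phka2 on both sides of 0.

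None of the further genes of synthesis and breakdown examined passed 2-fold. Of 4 further genes of synthesis, the muscle-type synthase Gys1 changed by 0.80 on the log2 scale (146 and 221), the primer protein glycogenin, Gyg, by -0.19, and the phosphoglucomutases Pgm1 and Pgm2 by 0.04 and -0.63. Of 3 genes of breakdown, the brain and muscle phosphorylases Pygb and Pygm read 220 and 120 upon fasting and 190 and 113 upon feeding, before scaling between arrays. After quantile normalization their log2 changes were 0.00 and 0.11. The lysosomal glucosidase Gaa read 10627 and 10576, a change of -0.00. Of 7 further genes of the phosphorylase kinase holoenzyme, including the calmodulins that serve as its delta subunit, 6 were measured and ran from -0.16 to 0.31. Phkg1, the catalytic subunit of muscle, was not well above background. The medians of these lists were -0.08, 0.00 and 0.10, beside 0.00 for all genes. The median for synthesis was 0.12 with scaling to the median.

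Of 4 genes that act around glucose 6-phosphate, the branch point before glycogen, 1 passed 2-fold, beside 7.91% of all genes measured. It is named here after its values were seen. G6pc, the catalytic subunit of glucose 6-phosphatase, read 51477 upon fasting and 14639 upon feeding, a 3.41-fold decrease that stayed past 2-fold under each of the 6 other ways of processing. The glucose 6-phosphate transporter Slc37a4 and the glucose transporter Slc2a2 changed by 0.05 and 0.48 on the log2 scale.

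Of 4 genes for the quality control of glycogen, 3 were measured and 2 passed 2-fold, beside 7.91% of all genes measured. These 2 are again named after their values were seen. Nhlrc1, the ubiquitin ligase malin, read 160 upon fasting and 357 upon feeding, a log2 change of 1.35 that was 0.76 with normexp. Gabarapl1, an autophagy protein that binds the glycogen receptor Stbd1, read 40681 and 19299, a log2 change of -1.04 that fell short of 2-fold with scaling to the 75th percentile (-0.97) or to the median (-0.84), with normexp (-0.96) and with no background subtraction (-0.96). Stbd1 changed by -0.32, and the laforin gene Epm2a had no signal well above background. Of 10 kinases that phosphorylate glycogen synthase or act in that route, 1 passed 2-fold, beside 7.91% of all genes measured. It was the protein kinase A catalytic subunit Prkaca, at 179 upon fasting and 60.5 upon feeding. Its log2 change of -1.35 was -0.56 with normexp and -0.81 with no background subtraction, so its call depends on the background correction of a dim probe. The other 9, with the synthase kinases Gsk3a at -0.21 and Gsk3b at 0.39, did not pass 2-fold.

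**Figure D4:**
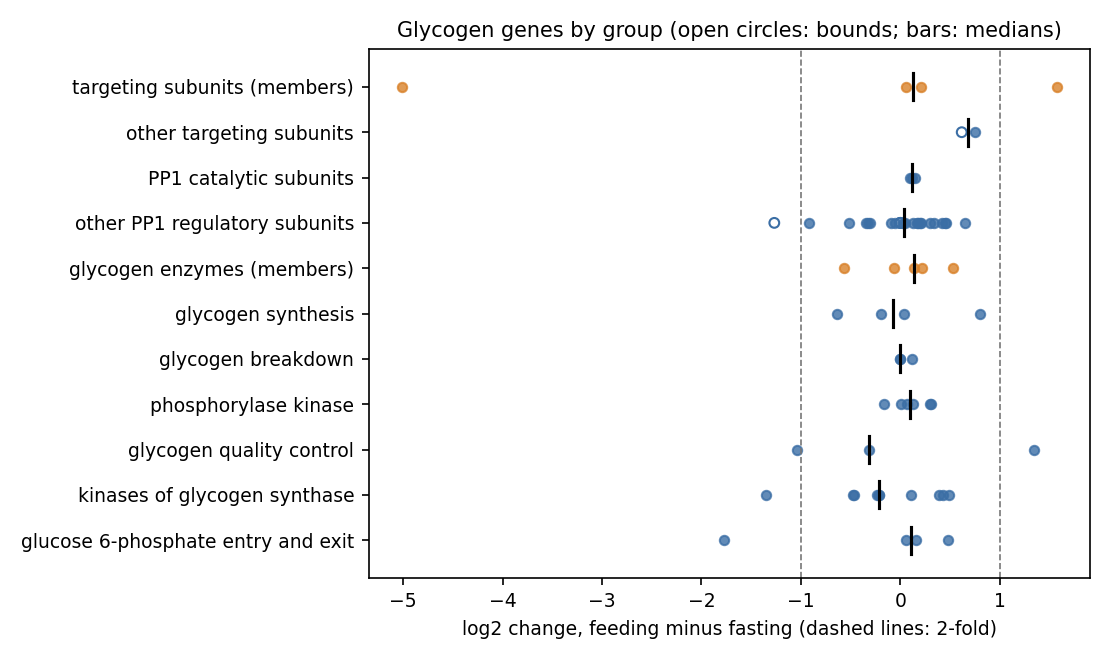
Log2 change, feeding minus fasting, of each measured gene in 11 groups of glycogen and PP1 genes, with dashed lines at 2-fold; each point is a gene, open circles are genes seen above background on 1 array, plotted at the bound, and black bars are medians. Ppp1r3g at -5.02 is the lowest point, followed by G6pc at -1.77, and the groups' medians lie between -0.32 and 0.69.

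Genes nearest to Ppp1r3g in change, with all their probes well above background on both arrays, were B930025P03Rik (423 upon fasting, 13.1 upon feeding, 29.0-fold lower), Pcdh20 (257 and 9.40, 24.6-fold) and Tlcd3a (1050 and 39.1, 24.2-fold). Likeness here rests on 2 arrays and is the distance in log2 change, which was 0.16, 0.40 and 0.42. The signals of B930025P03Rik and Pcdh20 upon feeding were close to the floor, and all of these were dimmer than the 252.5 of Ppp1r3g. How far their folds depend on the background correction was not tested. The genes that neighbour Ppp1r3g on its chromosome in the GRCm38.p6 annotation did not share its change. Cdyl, the nearest but one before it, changed by -0.87, and Lyrm4 and Fars2 after it changed by 0.36 and -0.21. Rpp40, just before it, read 271 upon fasting and 369 upon feeding.

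The tissue was checked against markers of the liver and of other cells. All 5 hepatocyte markers were well above background on both arrays, with Alb at 159091 upon fasting and 141790 upon feeding, and they changed by -0.33 (Cps1) to 0.07, with Ttr at -0.02. Of 5 skeletal muscle markers, 0 were above background on both arrays; Ckm and Myh4 had no such signal, and Acta1, at 16.4 upon fasting and 10.2 upon feeding, passed the background test on the feeding array alone. The adipocyte markers Adipoq and Lep were likewise at background. Plin1 read 3.32 upon fasting and 9.77 upon feeding, with the second alone past the background test. Cidec, of the same list, was bright, at 8765 upon fasting and 5018 upon feeding. Its log2 change was -0.77, and -1.37 by its dimmer probe. The 3 adipocyte markers measured had a median of 0.00 (-0.77 to 0.42), which is the bound given to Plin1. Markers of Kupffer cells and leukocytes had a median change of -0.45 (4 measured, -0.89 to 0.00, with Clec4f at -0.41 and Ptprc at -0.49). Endothelial markers had a median of -0.35 (5 measured, -1.04 to -0.11, with Stab2 at -0.35, Pecam1 at -1.04 and Kdr at -0.11). Stellate cell markers had a median of -0.24 (5 measured, -0.97 to 0.24, with Lrat at 0.24 and Dcn at -0.24, and Des at 17.4 upon fasting and 9.45 upon feeding, past the background test on the feeding array alone). Bile duct markers had a median of 0.08 (5 measured, -0.46 to 2.11, with Krt19 at -0.31, Epcam at 0.08 and Sox9 at 2.11). Markers of exocrine pancreas had a median of 0.12 (4 measured), with Cela1 at 0.24, Prss2 at a bound of 1.37 and Cpa1 near background. Amy2a5, of the same list, was bright, at 3632 upon fasting and 3302 upon feeding. Markers of red blood cells had a median of -0.05 (3 measured), with Hba-a1 at -0.05 and Alas2 at -0.23. Markers past the background test on 1 array alone entered these medians and ranges at a bound, or at 0 where the bound had no direction. The part of the markers in the changes above was not tested. Each array held 44397 spots, of which 63.1% upon fasting and 72.3% upon feeding of the non-control spots were well above background, and none was saturated.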

How the data were processed

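Total RNA of pooled livers (3 male mice a pool) was labelled with Cy3 and hybridised to Agilent whole mouse genome arrays, 1 array a group. The deposited intensity values were made by the authors with Feature Extraction 11.0.1.1, which subtracts background and removes spatial trends within each array; the flags (other) for background, outliers and saturation come from the same deposited files. Both arrays were on the same slide, at different positions. The separate value table holds the mean local background of each of 44397 spots and was not used.

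Outlier and control spots were left out, spots of a probe averaged as log2, and 39402 probes quantile normalized between the arrays, as in the study's methods, in Python 3.11.15 with numpy 2.4.6 and pandas 2.3.3. Of these, 27218 (69.1%) matched a RefSeq transcript of the GRCm38.p6 table. A gene took its brightest probe, which had to exceed background clearly on 1 array or both. The change of the 1831 genes that did so on 1 is a lower bound. It was set to 0, which has no direction, where the signal on that array was not above the other signal and the floor. The threshold was 2-fold. The number of arrays limits the precision: no test between groups was made. The SD between places comes from 289 probes printed 10 times on each array, with the variances within the arrays added. The scaling and the calling of changes were tested on simulated data. There all probes counted as above background, so the filter on dim probes and the lower bound were not tested. Alternatives were scaling to the 75th percentile or median, normexp with an offset of 50 (limma 3.58.1, R 4.3.3), averaging a gene's probes, keeping outlier spots, other thresholds and filters, and, chosen after seeing the data, raw signals and a correction for the surrounding spots. The 9 genes and all gene lists were chosen with earlier results of these data known. Named were the 9 genes, listed genes past 2-fold, the 3 genes nearest to Ppp1r3g and the first markers of each list; further names were chosen after their values were seen. Probe and protein sequences were not analysed here, and some genes of the pathway are not reported here.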

Additional observations from a re-analysis of the deposited data

How the results depend on the processing

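The change of Ppp1r3g kept its direction and stayed past 2-fold under all 7 alternatives. It was -4.88 on the log2 scale with scaling to the median, -4.41 with normexp and -4.78 with no background subtraction, each further from -5.02 than the SD of 0.0952 between places of the array. Ppp1r3g minus the median of the other targeting subunits was -4.61 with normexp and -4.98 with no background subtraction, against -5.22. The count of the 9 genes past 2-fold was 2 under every scaling, correction and filter run, and 1 at a threshold of 3-fold, which Ppp1r3c at 2.98-fold missed. Over all genes the 1293 past 2-fold became 527 with normexp, 751 with no background subtraction and 2023 with no filter on dim probes, and the counts past 1.5-fold and 3-fold were 3451 and 469. At 3-fold, 158 genes were higher and 311 lower. Scaling to the median shifted the median change of all genes by 0.09, and by 0.12 for genes above background on both arrays. Of the 9 genes, Ppp1r3d changed sign with scaling to the 75th percentile (-0.06) and Phka2 with scaling to the 75th percentile (0.01) or the median (0.13). Ranges over 6 alternatives were 0.20 to 0.42 for Ppp1r3b, -0.59 to -0.34 for Gys2, 0.53 to 0.74 for Pygl, 0.21 to 0.43 for Gbe1 and 0.14 to 0.35 for Ugp2. Signal over background limits what can be said of Ppp1r3d, Ppp1r3e and Ppp1r3f. No paired analysis was possible because each group has 1 array.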

Other observations

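PP1 has many regulatory subunits outside the glycogen family, and 24 of the 30 named on the array were measured. None was past 2-fold higher upon feeding and 1 was past 2-fold lower, beside 3.29% and 4.62% of all genes measured. The 1 was Ppp1r16b, a dim gene at 16.7 upon fasting that was not well above background upon feeding (5.87). It fell short of 2-fold with normexp (-0.11 on the log2 scale), with no background subtraction (-0.32) and with the mean of its probes (-0.53). The log2 changes of the measured subunits had a median of 0.04 and ran to 0.65 for Ppp1r14b, an inhibitor of myosin phosphatase. Ppp1r15a, which directs PP1 to the initiation factor eIF2 under stress, read 1706 upon fasting and 859 upon feeding, a change of -0.92. These names were chosen after their values were seen.

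The chromosomal neighbours of the other targeting subunits were read in the same way. Around Ppp1r3c, Pcgf5, Hectd2, Tnks2 and Fgfbp3 changed by -0.59, 0.66, -0.17 and -0.55 on the log2 scale, each below 2-fold. Around Ppp1r3b, Dusp4, Eri1 and Mfhas1 changed by 0.27, -0.39 and 0.39, while Tnks, above background upon fasting alone (20.9, against 3.05 upon feeding), was past 2-fold lower, with a bound of -1.59. Around Ppp1r3d, Zfp931, Phactr3, Fam217b and Cdh26 changed by 0.09, -0.29, -0.41 and 0.34.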
